A study of Mus musculus with 35 samples.

Results

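Transcripts of 35 genes of the p53 pathway were followed in mouse LT-HSCs (long-term haematopoietic stem cells), a small bone marrow population that renews itself and feeds every line of blood cells. The genes were p53 itself (Trp53), its direct regulators and known p53 targets in apoptosis, cell cycle, metabolism and DNA repair, and they were taken by name from the count tables. All 35 were found among 19138 genes, and all 35 passed the low-count filter that left 14945 genes. RNA had been sequenced from 35 libraries of 1000 sorted cells each, and every group carried the SclCre transgene, in which regulatory sequence of the blood gene Scl drives Cre in stem cells and their early progeny. The 6 groups were SclCre alone with Ezh2 +/+ (control, 4 libraries), SclCre with Ezh2 +/- (7), SclCre with Ezh2 -/- (4), SclCre with JAK2V617F and Ezh2 +/+ (6), SclCre with JAK2V617F and Ezh2 +/- (8), and SclCre with JAK2V617F and Ezh2 -/- (6). JAK2V617F, written JAK2-VF here, is the activating kinase mutation of myeloproliferative neoplasms, and Ezh2 encodes the histone H3 lysine methyltransferase of the Polycomb repressive complex. The comparisons ask how JAK2-VF, loss of Ezh2 and both together change these transcripts.

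p53 is a transcription factor that is held at low levels by Mdm2, which marks it for degradation, and by Mdm4, which blocks its activity. DNA damage and other stresses release p53, which then raises genes that arrest the cell cycle, start apoptosis, repair DNA and adjust metabolism. In haematopoietic stem cells p53 is known to favour quiescence and to remove damaged cells. Some genes of cell division that are counted among p53 targets, such as Gtse1, Ckap2 and Psrc1, are also made in dividing cells as part of the mitotic programme.

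Library totals were 13.6 to 48.6 M counts (median 24.9 M). Of the libraries, 14 belonged to batch 1 and 21 to batch 2, and 20 came from females and 15 from males. Control had 4 females and 0 males, with 2 libraries from each batch, and Ezh2 +/- had 3 females and 4 males, with 3 libraries in batch 1 and 4 in batch 2. Ezh2 -/- had 1 female and 3 males (1 library in batch 1, 3 in batch 2), and in JAK2-VF sex and batch coincided, with 2 females in batch 1 against 4 males in batch 2. JAK2-VF Ezh2 +/- had 5 females and 3 males (3 and 5 libraries by batch) and JAK2-VF Ezh2 -/- 5 females and 1 male (3 and 3). No label ties a library to an animal, and the p-values therefore cover only how far the libraries of a group spread. Counts of the deleted Ezh2 exons were 0 to 3 in the 10 libraries labelled Ezh2 -/-. They were also 0 in the library labelled Ezh2 +/- batch 1 replicate 3, while the other libraries had 8 to 247. The library labelled Ezh2 +/- batch 1 replicate 1, a male by its label, held Xist at 394.2 CPM (counts per 1 M counts), between the 14 other males (0.436 to 14.8 CPM) and the 20 females (581.7 to 1432.7 CPM). Both libraries are kept, and results that turn on them are also given without them. The stem cell markers listed for this tissue were present in every library, with a summed level of 3386.9 to 7221.9 CPM over 11 genes. Neutrophil and monocyte markers were also present and varied widely, from 806.4 to 18631.8 CPM over 12 genes. In bulk RNA, fewer cells of a type and less RNA per cell cannot be told apart.

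Promoter sequences were examined for motifs of p53 and of the cell cycle, and 27 of the 35 genes had a window of the 250 bases before a transcription start in the RefSeq table (39 windows, GRCm38.p6). The p53 half-site was found in 10 of the 39 windows, 1 each of 10 genes (Aen, Bax, Ccng1, Ckap2, Ei24, Mdm2, Pml, Polk, Sesn1 and Trp53), and in 7.126% of all 32851 windows. The full response element, a pair of half-sites that adjoin or are separated by a short stretch of bases, was in 0 of the 39 windows. It was in 0.064% of all windows. The letters TTTGAA (the cell cycle homology region, CHR) were in 7 of the 39 windows, those of 7 genes (Aen, Bax, Ckap2, Ercc5, Fas, Fdxr and Gdf15), and in 15.987% of all windows. TTTAAA, a related form, was in 6 of the 39 windows, those of 5 genes (Gtse1, Mdm2, Mdm4, Plk2 and Polk), and in 12.076% of all windows. Both strands were searched, and in Bax the half-site and TTTGAA overlap. The pair of a cell cycle dependent element and a CHR (GGCGG or CGCGG, 4 bases before TTTGAA) was in 0 of the genes and in 0.043% of all windows. The promoters of Ckap2, Trp53, Gtse1 and Plk2 are shown as examples of genes that changed with JAK2-VF and hold at least 1 of the motifs. Fas (TTTGAA) and Sesn1 (half-site) also meet both conditions and are not shown. Capitals mark the motifs, and the letters run 5' to 3' on the gene's strand. In Ckap2 (chr8:22185820-22186069, minus strand) the half-site lies 203 to 194 bases and TTTGAA 101 to 96 bases before the start. In Trp53 (chr11:69580109-69580358, plus strand) the half-site lies 75 to 66 bases before it. TTTAAA lies 12 to 7 bases before the start in Gtse1 (chr15:85859457-85859706, plus strand) and 24 to 19 bases before it in Plk2 (chr13:110394794-110395043, plus strand). The windows of Psrc1 held none of the letters searched. A match describes the letters only.
Ckap2: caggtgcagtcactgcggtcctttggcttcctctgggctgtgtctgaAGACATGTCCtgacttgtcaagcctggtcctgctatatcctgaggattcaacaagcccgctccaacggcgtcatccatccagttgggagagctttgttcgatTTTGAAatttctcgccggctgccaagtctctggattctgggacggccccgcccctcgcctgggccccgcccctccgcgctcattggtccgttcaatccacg
Trp53: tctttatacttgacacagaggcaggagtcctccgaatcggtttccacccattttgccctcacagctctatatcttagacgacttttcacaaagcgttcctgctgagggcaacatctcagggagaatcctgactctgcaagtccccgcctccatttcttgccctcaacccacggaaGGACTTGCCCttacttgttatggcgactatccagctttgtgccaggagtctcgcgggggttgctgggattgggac
Gtse1: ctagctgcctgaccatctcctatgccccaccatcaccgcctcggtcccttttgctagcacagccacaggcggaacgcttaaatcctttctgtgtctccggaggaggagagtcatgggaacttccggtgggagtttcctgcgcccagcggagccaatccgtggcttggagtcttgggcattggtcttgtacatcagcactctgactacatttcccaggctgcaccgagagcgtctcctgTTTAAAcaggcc
Plk2: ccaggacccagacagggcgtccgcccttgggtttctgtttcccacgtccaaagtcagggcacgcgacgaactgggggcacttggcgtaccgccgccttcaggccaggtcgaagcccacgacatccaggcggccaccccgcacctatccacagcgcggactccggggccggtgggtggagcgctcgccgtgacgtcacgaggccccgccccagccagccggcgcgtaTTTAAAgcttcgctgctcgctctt

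The mean of log2(CPM + 1) over the genes was 4.6 ± 0.12 (SD, n = 4) in control, 4.64 ± 0.17 (n = 7) in Ezh2 +/-, 4.81 ± 0.19 (n = 4) in Ezh2 -/-, 4.68 ± 0.07 (n = 6) in JAK2-VF, 4.64 ± 0.08 (n = 8) in JAK2-VF Ezh2 +/- and 4.74 ± 0.12 (n = 6) in JAK2-VF Ezh2 -/- libraries. The ranges of all 6 groups overlapped. Single genes spanned a wide range of abundance: per kilobase of transcript in controls, Trp53 had the highest mean level (220.3 CPM per kb), followed by Plk2 (103.8) and Bax (100.1). Eda2r, a receptor of the tumour necrosis factor family (0.361 CPM per kb), and Pmaip1, the apoptosis activator Noxa (0.365), had the lowest.

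JAK2-VF changed 9 of the 35 genes, and 26 gave no call. Pooled over the 3 Ezh2 genotypes, 4 of 35 genes rose (11.4%) and 5 fell (14.3%), and over all genes 12.9% rose and 12.5% fell (edgeR's quasi-likelihood test, adjusted p under 0.05 within the comparison). Both shares among the 35 were near those of all genes. Trp53, Gtse1, Psrc1 and Ckap2 rose, and Plk2, Fas, Ddit4, Sesn1 and Ak1 fell. The median log2 change of the 35 genes was -0.01, and that of all genes tested was also -0.01.

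Single comparisons gave fewer calls. With Ezh2 intact, 1 of 35 genes rose (Ckap2; 2.34% of all genes rose) and 1 fell (Plk2; 1.81% fell). In Ezh2 +/- cells 4 rose (Trp53, Gtse1, Psrc1 and Ckap2; 4.82% of all genes) and 2 fell (Plk2 and Ak1; 4.18%). In Ezh2 -/- cells 3 rose (Trp53, Psrc1 and Ckap2; 2.84% of all genes) and 2 fell (Plk2 and Ddit4; 1.97%). Genes with an unadjusted p under 0.05 numbered 8, 12 and 9 of 35 in the same order (22.9%, 34.3% and 25.7%), beside 2626, 3395 and 2754 of all 14945 genes (17.6%, 22.7% and 18.4%). Of the 13 calls in these 3 comparisons, 13 were lost within at least 1 batch, 7 of them within both, and 10 were lost in females alone and 6 with only the compared groups in the fit. Whether the JAK2-VF effect differed with the loss of 1 or both Ezh2 alleles was tested as an interaction, and 0 of 35 genes passed in either case, with 0.0% of all genes for 1 allele and 0.00669% for both. The DESeq2 Wald test and limma-voom also called 0 of the 35 in these interactions. Over all genes the DESeq2 Wald test called 56 for 1 allele and 92 for both, and limma-voom 0 and 1. An unadjusted edgeR p under 0.05 was found for 3 of 35 in each (8.57%), beside 640 of 14945 genes for 1 allele (4.28%) and 812 for both (5.43%).

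**Figure D1:**
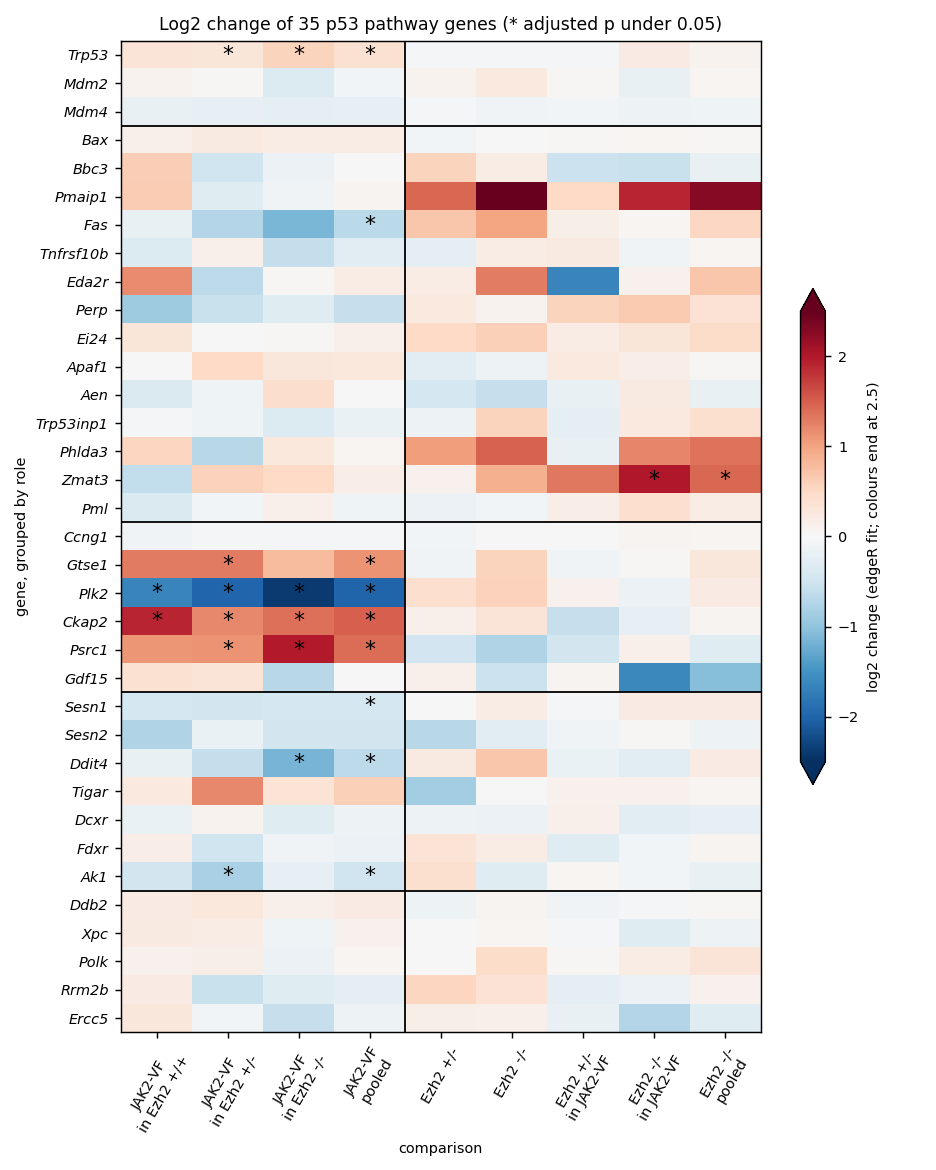
Log2 change of each of the 35 genes (rows, grouped by role) in 9 comparisons (columns), with red for higher and blue for lower in the first-named genotype and a star for an edgeR adjusted p under 0.05. Plk2 and Ckap2 have stars in all 4 JAK2-VF columns, and Trp53 and Psrc1 in all of these but Ezh2 +/+. Gtse1 and Ak1 have stars in Ezh2 +/- and pooled, and Ddit4 in Ezh2 -/- and pooled. Sesn1 and Fas have a star in the pooled column only. Zmat3 alone has stars in the Ezh2 columns.

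Among p53 and its direct regulators, Trp53 rose with JAK2-VF. Its level was 375.1, 371.3, 430.0 and 469.8 CPM in the 4 control libraries and had a lowest, median and highest value of 430.6, 537.1 and 672.1 CPM in JAK2-VF. It ran from 307.1 to 534.1 CPM (median 393.3) in Ezh2 +/- and from 374.3 to 622.4 CPM (median 546.2) in JAK2-VF Ezh2 +/-. In Ezh2 -/- the 4 libraries had 363.1, 423.9, 499.1 and 467.2 CPM, and JAK2-VF Ezh2 -/- ran from 513.6 to 661.3 CPM (median 588.9). Without Ezh2 the groups did not overlap, and with 1 or both alleles they did. The log2 change was 0.33 ± 0.11 (SE; edgeR adjusted p = 0.0894) with Ezh2 intact, 0.30 ± 0.08 (adjusted p = 0.0212) in Ezh2 +/- and 0.55 ± 0.11 (adjusted p = 0.00262) in Ezh2 -/- cells. Pooled, Trp53 rose by 0.39 ± 0.06 (edgeR adjusted p = 3.22e-06), and it also passed within batch 1 (0.55, adjusted p = 0.0187) and within batch 2 (0.35, adjusted p = 0.00324). The call in Ezh2 +/- cells was lost without the 2 doubted libraries (0.23, adjusted p = 0.127), without Ezh2 +/- batch 1 replicate 3 alone (adjusted p = 0.0683) and without Ezh2 +/- batch 2 replicate 2 (adjusted p = 0.0554). With batch and replicate number as a block it was lost too (0.27, edgeR adjusted p = 0.0672). The same held with only the compared groups in the fit (0.30, edgeR adjusted p = 0.0594). Within batch 1 (0.38, edgeR adjusted p = 0.294) and batch 2 (0.28, adjusted p = 0.147) the call was also lost. So was the call in females alone (0.24, edgeR adjusted p = 0.38). That in Ezh2 -/- cells was lost with only the compared groups in the fit (0.50, edgeR adjusted p = 0.0897), within batch 1 (0.92, adjusted p = 0.297), within batch 2 (0.42, adjusted p = 0.0988) and in females alone (0.68, adjusted p = 0.211).

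Neither Mdm2, the ubiquitin ligase that is both a target and an inhibitor of p53, nor Mdm4, its partner, passed the test in any comparison. Mdm2 was 79.3, 84.7, 89.3 and 97.1 CPM in the controls and ran from 70.8 to 112.1 CPM (median 87.9) in JAK2-VF. In JAK2-VF Ezh2 +/- it ran from 70.4 to 154.1 CPM and in JAK2-VF Ezh2 -/- from 55.9 to 115.1 CPM. These groups overlapped, and the pooled log2 change was -0.07 ± 0.09 (edgeR adjusted p = 0.631). Mdm4 group means lay between 39.2 and 49.3 CPM, with a pooled JAK2-VF change of -0.20 ± 0.09 (edgeR adjusted p = 0.116).

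Of the 14 apoptosis genes, 1 fell and 0 rose with JAK2-VF in the pooled comparison (12.5% and 12.9% of all genes), with a median log2 change of 0.02. The gene that fell was Fas, the death receptor, at -0.68 ± 0.20 (edgeR adjusted p = 0.0111). Fas was 14.5, 7.81, 9.57 and 8.99 CPM in the controls and 7.60, 23.9, 20.6 and 15.9 CPM in Ezh2 -/- libraries. It ran from 4.03 to 17.6 CPM (median 6.56) in JAK2-VF and from 6.01 to 15.4 CPM (median 7.86) in JAK2-VF Ezh2 -/-. In Ezh2 +/- it ran from 9.71 to 27.8 CPM and in JAK2-VF Ezh2 +/- from 4.79 to 14 CPM. The groups overlapped in all 3 pairs, and the fall was found in batch 2 (-0.68, edgeR adjusted p = 0.0178) but not in batch 1, where the change was 0.02 (adjusted p = 1.0).

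Bax, Bbc3, Pmaip1 and Phlda3, apoptosis genes often read as p53 targets, passed in none of the comparisons. Bax, a pore-forming protein of the mitochondrial membrane, had group means from 87.0 ± 11 CPM (SD, n = 4, control) to 101.2 ± 15.3 CPM (n = 8, JAK2-VF Ezh2 +/-), and its pooled JAK2-VF change was 0.18 ± 0.08 (edgeR adjusted p = 0.088). Bbc3, the BH3-only protein Puma, was low and scattered, with 2.67, 3.09, 8.83 and 16.7 CPM in the controls and 6.79 to 11.8 CPM in JAK2-VF. The 2 low control libraries of Bbc3 were those of batch 1 and the 2 high ones those of batch 2. Pmaip1 was at 0 in 2 of 4 control libraries and reached 2.32 and 1.55 CPM in the others. At these depths a count of 0 allows up to 0.15 and 0.14 CPM (3 counts of the total), a limit that covers counting error only. In JAK2-VF Ezh2 -/- libraries Pmaip1 ran from 1.38 to 9.81 CPM, and its pooled Ezh2 -/- change of 2.27 ± 1.21 did not pass (edgeR adjusted p = 0.687). Phlda3, an inhibitor of Akt signalling, stayed between 0.0 and 8.39 CPM over the libraries, and none of its comparisons passed.

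The other apoptosis genes did not pass the edgeR test in any comparison, apart from Zmat3, which is described with the loss of Ezh2. Perp, a membrane protein of p53-dependent apoptosis, had a mean of 21.5 ± 4.89 CPM (SD, n = 4) in control and 12.4 ± 5.51 CPM (n = 6) in JAK2-VF, with 5 of 6 JAK2-VF libraries below all controls, and a pooled change of -0.58 ± 0.25 (edgeR adjusted p = 0.0922). Pml, the organiser of nuclear bodies, was abundant, with group means from 208.2 ± 23 CPM (n = 6, JAK2-VF) to 279.0 ± 40.4 CPM (n = 6, JAK2-VF Ezh2 -/-). Its change was -0.36 ± 0.12 with JAK2-VF in Ezh2 +/+ cells (edgeR adjusted p = 0.0924, DESeq2 0.0483) and 0.42 ± 0.11 with Ezh2 loss in JAK2-VF cells (edgeR adjusted p = 0.0872). Ei24, a protein of the endoplasmic reticulum, was 16.3 to 19.8 CPM in the 4 controls and 24.9 to 38.3 CPM in the 4 Ezh2 -/- libraries. The Ei24 groups did not overlap, but the change of 0.59 ± 0.31 did not pass (edgeR adjusted p = 0.857). Pooled JAK2-VF changes of the remaining genes were -0.27 ± 0.13 for the death receptor Tnfrsf10b, 0.18 ± 0.58 for Eda2r, 0.26 ± 0.18 for the apoptosome protein Apaf1, -0.01 ± 0.12 for the nuclease Aen and -0.16 ± 0.16 for the autophagy and apoptosis protein Trp53inp1.

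Of 6 cell cycle genes, 3 rose and 1 fell with JAK2-VF in the pooled comparison (12.9% and 12.5% of all genes), and the median log2 change was 0.57. Plk2, a polo-like kinase that is induced by p53 and by growth signals, fell in all 3 Ezh2 genotypes. It was 231.7, 74.7, 410.2 and 446.2 CPM in the controls, and 52.3 to 155.4 CPM (median 70.4) in JAK2-VF. In Ezh2 +/- it ran from 194.5 to 571.1 CPM (median 339.7) and in JAK2-VF Ezh2 +/- from 64.1 to 145.2 CPM (median 91.9). Ezh2 -/- libraries had 257.6, 467.2, 789.1 and 357.2 CPM, and JAK2-VF Ezh2 -/- libraries 20.8 to 106.6 CPM (median 85.2). Every library with JAK2-VF lay below every one without it in Ezh2 +/- (8 of 8) and Ezh2 -/- cells (6 of 6). With Ezh2 intact 4 of 6 lay below all controls, because control batch 1 replicate 2 was low.

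Plk2 changed by -1.66 ± 0.41 (log2, SE; edgeR adjusted p = 0.0154) with Ezh2 intact, by -1.98 ± 0.31 (adjusted p = 7.17e-05) in Ezh2 +/- and by -2.39 ± 0.40 (adjusted p = 0.000251) in Ezh2 -/- cells. The interaction with the loss of both alleles was -0.73 ± 0.60 (edgeR adjusted p = 1.0), so a difference between these effects was not shown. The pooled change of -2.01 ± 0.20 (edgeR adjusted p = 6.11e-09) was called under all 10 alternatives and without any of the 35 libraries. It was -1.71 within batch 1 (adjusted p = 0.0379) and -2.12 within batch 2 (adjusted p = 5.16e-06). With Ezh2 intact the call was lost without control batch 2 replicate 4 (-1.46, edgeR adjusted p = 0.0537), with only the compared groups in the fit (-1.13, adjusted p = 0.259), in females alone (-1.65, adjusted p = 0.138) and within either batch (-1.14, adjusted p = 0.526, and -1.97, adjusted p = 0.111). Levels of 18 immediate-early and handling stress genes moved with some of the low and high libraries. Their sum was lowest in control batch 1 replicate 2 (5775.5 CPM) and JAK2-VF Ezh2 -/- batch 1 replicate 1 (8386.7 CPM), the libraries with the lowest Plk2 in their groups, and it was high in Ezh2 -/- batch 2 replicate 2 (35391.6 CPM), which had the highest Plk2. Between control and JAK2-VF the sum was higher where Plk2 was lower. Its mean was 13332.9 CPM in control and 26807.1 CPM in JAK2-VF. The mean also rose from 18684.7 CPM in Ezh2 +/- to 23629.1 CPM in JAK2-VF Ezh2 +/-. It fell, as Plk2 did, from 22924.8 CPM in Ezh2 -/- to 16815.9 CPM in JAK2-VF Ezh2 -/-. The part of these genes in the Plk2 result was not tested.

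Ckap2, a spindle-associated protein of dividing cells, rose in all 3 genotypes. It was 8.86, 23.2, 12.6 and 16.8 CPM in the controls and 15.8 to 95.7 CPM (median 45.9) in JAK2-VF. In Ezh2 +/- it ran from 7.44 to 25 CPM and in JAK2-VF Ezh2 +/- from 28.2 to 40.1 CPM. Ezh2 -/- libraries had 17.3, 24.1, 13.9 and 6.20 CPM, and JAK2-VF Ezh2 -/- libraries 33.8 to 72.9 CPM. The groups overlapped by 1 JAK2-VF library with Ezh2 intact and not at all in the other pairs. Log2 changes were 1.90 ± 0.40 (edgeR adjusted p = 0.00443), 1.21 ± 0.30 (adjusted p = 0.0071) and 1.37 ± 0.39 (adjusted p = 0.0332) in Ezh2 +/+, +/- and -/- cells, and 1.49 ± 0.20 pooled (adjusted p = 1.28e-06). Within batches the pooled change was 1.51 (edgeR adjusted p = 0.012) and 1.24 (adjusted p = 0.0053). The call in Ezh2 -/- cells was lost without any 1 of 5 libraries: Ezh2 -/- batch 1 replicate 1 (adjusted p = 0.0671), batch 2 replicate 2 (0.0593) or batch 2 replicate 3 (0.123), or JAK2-VF Ezh2 -/- batch 1 replicate 2 (0.0603) or batch 2 replicate 2 (0.0711). It was also lost with only the compared groups in the fit (1.20, edgeR adjusted p = 0.0832) and within batch 2 (1.29, adjusted p = 0.166). The change in Ezh2 -/- cells was 1.04 within batch 1 and 0.73 in females, where Ezh2 -/- had 1 library. With Ezh2 intact the call was lost within batch 2 (1.15, adjusted p = 0.56). In Ezh2 +/- cells it was lost within batch 2 (1.27, adjusted p = 0.079) and within batch 1 (1.09).

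Psrc1, a microtubule-binding protein, followed the same direction. It was 7.86, 21.5, 11 and 21.7 CPM in the controls and 30 to 48.5 CPM in JAK2-VF, so these groups did not overlap, yet the change of 1.10 ± 0.34 did not pass (edgeR adjusted p = 0.0585). The DESeq2 Wald test (adjusted p = 0.0246) and limma-voom (adjusted p = 0.0288) did call it. Ezh2 -/- libraries had 10.4, 15.8, 7.81 and 6.52 CPM and JAK2-VF Ezh2 -/- libraries 27.8 to 47.1 CPM, a rise of 1.98 ± 0.34 (edgeR adjusted p = 0.000423) without overlap. In Ezh2 +/- cells, at 3.99 to 21.4 CPM against 16.5 to 35.4 CPM, the rise was 1.12 ± 0.26 (adjusted p = 0.00444), or 0.83 (adjusted p = 0.0377) without the 2 doubted libraries. This call was lost within batch 1 (1.71, edgeR adjusted p = 0.119) and batch 2 (0.84, adjusted p = 0.0933). It was also lost in females alone (1.10, edgeR adjusted p = 0.105). In Ezh2 -/- cells the call was kept within batch 2 (1.86, edgeR adjusted p = 0.00459). The change there was 2.19 within batch 1 and 1.30 in females, where Ezh2 -/- had 1 library. Pooled, Psrc1 rose by 1.40 ± 0.18 (edgeR adjusted p = 3.51e-07), and it passed within batch 1 (1.70, adjusted p = 0.0251) and batch 2 (1.24, adjusted p = 0.00028).

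Gtse1, which binds p53 and is made late in the cell cycle, rose in the pooled comparison by 1.13 ± 0.26 (edgeR adjusted p = 0.00159), but not within batch 1 (1.28, adjusted p = 0.0754) or batch 2 (0.96, adjusted p = 0.0859) alone. It was 9.57, 7.59, 8.78 and 6.95 CPM in the controls and 11.8 to 32.2 CPM in JAK2-VF, without overlap. In Ezh2 +/- it ran from 0.143 to 16.2 CPM and in JAK2-VF Ezh2 +/- from 13.4 to 28.3 CPM, with 6 of 8 libraries above all of the former. Ezh2 -/- libraries had 9.51, 10.3, 7.51 and 21.9 CPM and JAK2-VF Ezh2 -/- libraries 10.8 to 40.0 CPM, which overlapped. The only single comparison that passed was in Ezh2 +/- cells (1.30 ± 0.40, edgeR adjusted p = 0.0386), and that call was lost without the 2 doubted libraries (1.39, adjusted p = 0.0697). It was also lost without any 1 of 7 libraries, with adjusted p from 0.0502 (without Ezh2 +/- batch 1 replicate 3) to 0.074 (without JAK2-VF Ezh2 +/- batch 2 replicate 4). The others of the 7 were Ezh2 +/- batch 1 replicate 1 and batch 2 replicate 1, and JAK2-VF Ezh2 +/- batch 1 replicate 3, batch 2 replicate 3 and batch 2 replicate 5. Of 11 alternatives, 4 kept this call. Limma-voom did not make it (1.38, limma-voom adjusted p = 0.0703). EdgeR lost it with batch and replicate number as a block (adjusted p = 0.0964) and with only the compared groups (0.123). Within batch 1 (0.52, edgeR adjusted p = 0.727), within batch 2 (1.85, 0.0673) and in females (1.83, 0.155) it was also lost.

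General markers of division rose in the same pooled comparison as Ckap2, Psrc1 and Gtse1. Of 20 proliferation genes, all 20 rose with JAK2-VF in the pooled comparison (12.9% of all genes), with a median log2 change of 1.88, among them Top2a (1.86 ± 0.16, edgeR adjusted p = 3.36e-10). Their summed level was 366.2 to 709.6 CPM in the 4 controls and 1091.2 to 2405.4 CPM in the 6 JAK2-VF libraries. Within JAK2-VF, Ckap2 was 95.7, 72.8 and 60.2 CPM in the 3 libraries with the highest sums (2374.9, 2207.5 and 2405.4 CPM) and 15.8 CPM in that with the lowest (1091.2 CPM). Gtse1 was 32.2, 26 and 31.9 CPM in the same 3 libraries and 11.8 CPM in the lowest. Psrc1 did not follow the sums in this way, at 32, 35.6 and 48.5 CPM in these 3 and 34.7 CPM in the lowest. The first 2 of these 3 were the only batch 1 libraries and the only females in JAK2-VF. Mean Ckap2 was 84.3 CPM in batch 1 and 32.8 CPM in batch 2, and mean Gtse1 29.1 and 18.8 CPM. Within batch 2, Ckap2 was 15.8, 23.5, 31.6 and 60.2 CPM at sums of 1091.2, 1154.4, 1419.9 and 2405.4 CPM. Gtse1 was lower at 1419.9 than at 1154.4 CPM. In JAK2-VF Ezh2 +/- the match was looser. Ckap2 and Gtse1 were 35.7 and 22.3 CPM at the highest sum (1756.3 CPM) and 28.2 and 15.6 CPM at the lowest (886.1 CPM). They were 28.7 and 16.5 CPM at 1714.3 CPM, below the 30.2 and 19.4 CPM at 921.3 CPM. In JAK2-VF Ezh2 -/- they were 72.9 and 40.0 CPM at the highest sum (2710.8) and 33.8 and 15.3 CPM at the lowest (1220.4). The part of division, batch and sex in these patterns was not tested. Stem cell markers moved opposite to the proliferation genes, with 9 of 11 lower (12.5% of all genes) and 0 higher. Of 3 progenitor markers 1 rose (12.9% of all genes), Cd34 by 0.80 ± 0.11 (edgeR adjusted p = 1.37e-06). Flt3 (0.09 ± 0.20, adjusted p = 0.796) and Cd48 (0.96 ± 0.63, adjusted p = 0.289) were not called. The part of the makeup of the sorted cells in the changes of these genes was not tested. Of the remaining cell cycle genes, Ccng1, a cyclin G that is a classical p53 target, had group means from 90.2 ± 5.27 CPM (SD, n = 4, control) to 107.5 ± 33.5 CPM (n = 4, Ezh2 -/-) and a pooled change of -0.05 ± 0.10 (edgeR adjusted p = 0.748). Gdf15, a secreted stress cytokine, was low at 1.57 to 4.82 CPM in group means, with a pooled change of 0.00 ± 0.45.

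**Figure D2:**
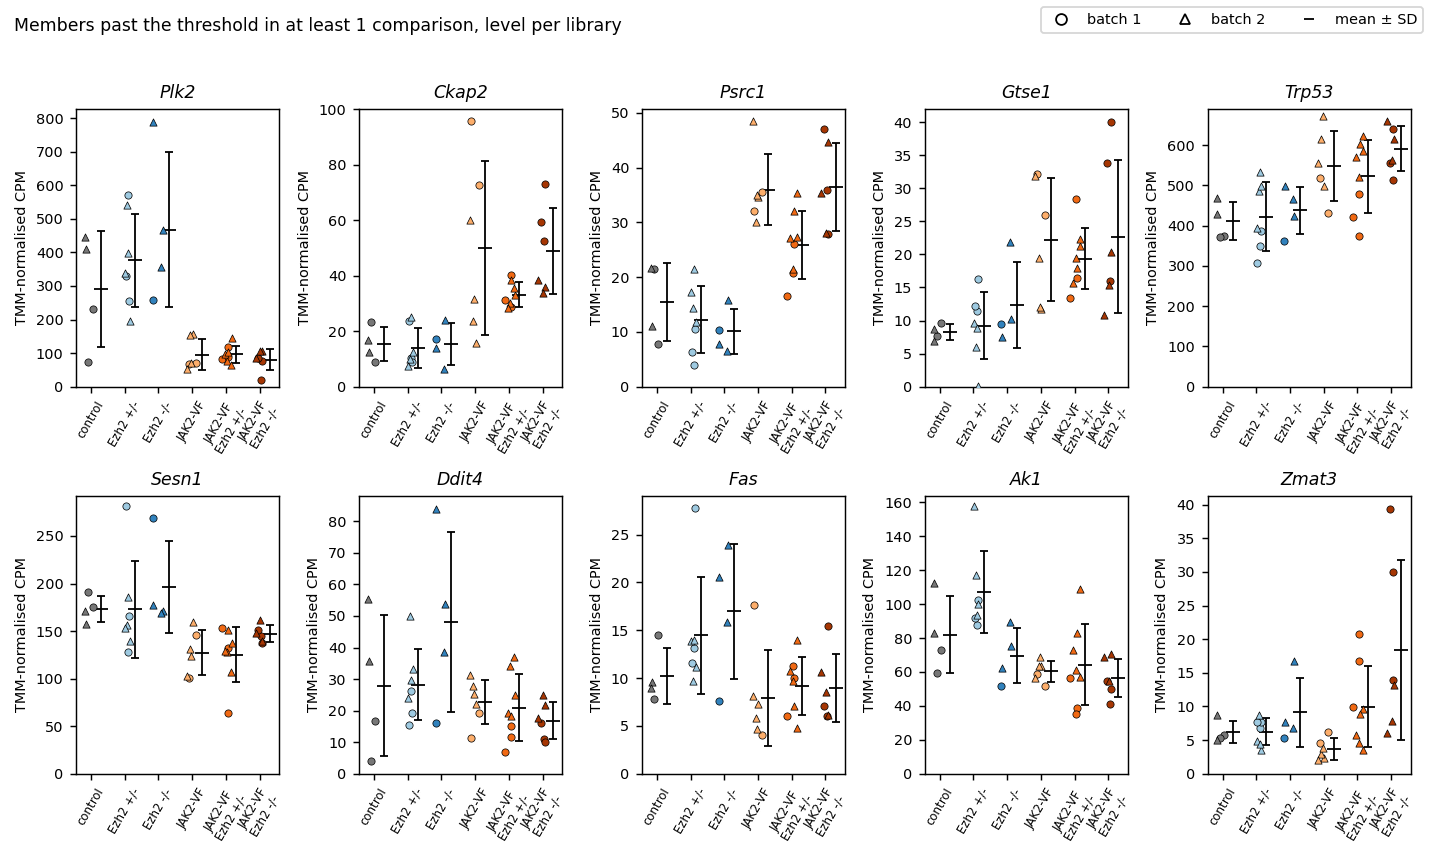
TMM-normalised CPM (vertical axes, starting at 0) of the 10 genes called in at least 1 comparison, for each library (points, circles for batch 1 and triangles for batch 2) in the 6 genotype groups, with mean and SD beside them. Plk2 is lower and Ckap2, Psrc1 and Gtse1 are mostly higher in the 3 JAK2-VF groups, while Zmat3 is highest in JAK2-VF Ezh2 -/-, where it runs from 6.04 to 39.4 CPM.

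Among the 7 genes of metabolism and stress, 3 fell and 0 rose in the pooled comparison (12.5% and 12.9% of all genes), with a median of -0.44. Sesn1, a sestrin that restrains mTORC1, was 175.6, 190.6, 157.3 and 170.9 CPM in the controls and 101.2 to 159.9 CPM in JAK2-VF, with 5 of 6 below all controls. In Ezh2 -/- cells all 6 JAK2-VF libraries (137.8 to 162.0 CPM) lay below all 4 without it (268.9, 170.7, 177.8 and 169.3 CPM). The change was -0.43, -0.45 and -0.43 with Ezh2 +/+, +/- and -/-, which did not pass (edgeR adjusted p = 0.269, 0.0595 and 0.249; DESeq2 0.0269 in Ezh2 +/-), and it was -0.44 ± 0.10 pooled (edgeR adjusted p = 0.00172). Within batches it was -0.85 (adjusted p = 0.0771) in batch 1 and -0.28 (adjusted p = 0.0369) in batch 2. Ak1, an adenylate kinase, changed by -0.81 ± 0.14 in Ezh2 +/- cells (edgeR adjusted p = 0.000303; 7 of 8 libraries below all Ezh2 +/- libraries) and by -0.49 ± 0.09 pooled (adjusted p = 0.000196). Its level was 72.8, 59.2, 112.6 and 82.8 CPM in the controls, 87.6 to 157.6 CPM in Ezh2 +/- and 35.4 to 108.8 CPM in JAK2-VF Ezh2 +/-. The Ak1 call in Ezh2 +/- cells was lost within batch 2 (-0.60, edgeR adjusted p = 0.0785) and in females alone (-0.63). The pooled Ak1 change was -0.53 within batch 1 (edgeR adjusted p = 0.165) and -0.49 within batch 2 (adjusted p = 0.0138).

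Ddit4, a stress-induced inhibitor of mTORC1, changed by -0.65 ± 0.18 pooled (edgeR adjusted p = 0.00659). It was 16.7, 4.06, 35.8 and 55.3 CPM in the controls, the lower pair being batch 1, and 11.5 to 31.4 CPM in JAK2-VF. Ezh2 -/- libraries had 16, 53.7, 84.0 and 38.6 CPM and JAK2-VF Ezh2 -/- libraries 9.95 to 24.9 CPM, with 3 of 6 below all of the former. That comparison passed narrowly (-1.17 ± 0.35, edgeR adjusted p = 0.0452), and it was kept without only 2 of the 10 libraries. Without any 1 of the other 8, namely Ezh2 -/- batch 2 replicates 1, 2 and 3 and JAK2-VF Ezh2 -/- batch 1 replicates 1 and 2 and batch 2 replicates 1, 2 and 3, the adjusted p was 0.0526 to 0.165. The pooled change was -0.84 within batch 2 (edgeR adjusted p = 0.00412) and -0.07 within batch 1 (adjusted p = 1.0). Like Plk2, Ddit4 was lowest in the control library with the lowest immediate-early sum (4.06 CPM) and highest in the Ezh2 -/- library with the highest sum (84.0 CPM). In females alone, where Ezh2 -/- had 1 library, the pooled change of Ddit4 was -0.49 and its call was lost. The same was found there for the pooled calls of Sesn1 (-0.49), Ak1 (-0.37), Fas (-0.44) and Gtse1 (1.28). Those of Plk2, Trp53, Psrc1 and Ckap2 were kept.

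The other 4 genes of this group did not pass in any comparison. Pooled JAK2-VF changes were -0.46 ± 0.31 for Sesn2, another sestrin, 0.59 ± 0.39 for Tigar, which diverts glycolysis to the pentose phosphate pathway, -0.13 ± 0.16 for the carbonyl reductase Dcxr and -0.14 ± 0.13 for the mitochondrial ferredoxin reductase Fdxr. Sesn2 spanned 0.688 to 25.6 CPM within Ezh2 +/- alone. The 5 genes of DNA repair and nucleotide supply likewise gave 0 calls in any edgeR comparison, and their pooled median was 0.04. Ddb2 and Xpc, which recognise ultraviolet lesions, changed by 0.20 ± 0.12 and 0.11 ± 0.09. The bypass polymerase Polk, the ribonucleotide reductase subunit Rrm2b and the nuclease Ercc5 changed by 0.04 ± 0.14, -0.22 ± 0.14 and -0.12 ± 0.13.

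**Figure D3:**
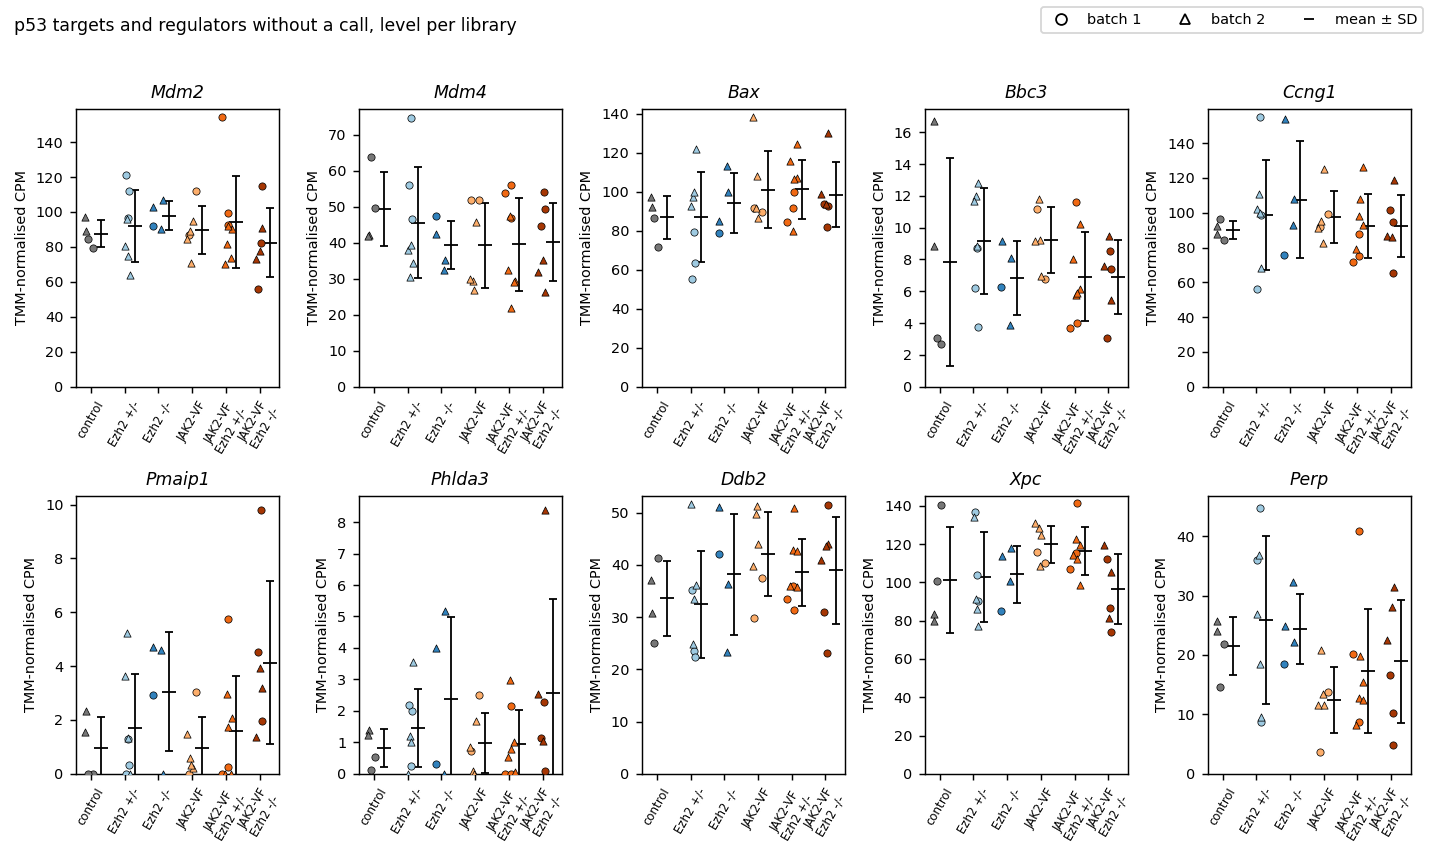
TMM-normalised CPM (vertical axes, starting at 0) of 10 p53 targets and regulators that passed in no comparison, for each library in the 6 genotype groups, with mean and SD. Mdm2, Bax and Ccng1 overlap across all groups, with group means of 82.4 to 97.9, 87.0 to 101.2 and 90.2 to 107.5 CPM.

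With loss of Ezh2, edgeR called Zmat3, a zinc finger RNA-binding protein induced by p53, and 0 others of the 35. The DESeq2 Wald test called Zmat3 and also Pml (0.42, DESeq2 adjusted p = 0.0132) for loss of both alleles in JAK2-VF cells. Zmat3 was 5.71, 5.38, 5.07 and 8.68 CPM in the controls and 5.26, 16.7, 7.71 and 6.82 CPM in Ezh2 -/- libraries, which overlapped. In JAK2-VF the 6 libraries ran from 2.01 to 6.25 CPM (median 3.44). In JAK2-VF Ezh2 +/- they ran from 3.56 to 20.8 CPM (median 9.30) and in JAK2-VF Ezh2 -/- from 6.04 to 39.4 CPM (median 13.5), with 5 of 6 of the latter above every JAK2-VF library. The log2 change for loss of both alleles was 0.89 ± 0.48 without JAK2-VF (edgeR adjusted p = 0.857) and 2.0 ± 0.40 with it (adjusted p = 0.00904). The difference of these effects was 1.11 ± 0.64 (edgeR adjusted p = 0.965), so an effect that depends on JAK2-VF was not shown. Pooled over both backgrounds the change was 1.44 ± 0.30 (edgeR adjusted p = 0.0136). With 1 allele lost in JAK2-VF cells it was 1.31 ± 0.36 (unadjusted p = 0.00102 in the edgeR fit, adjusted p = 1.0).

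The Zmat3 calls were not kept within a batch or without some single libraries. In batch 1 the mean was 5.41 CPM in JAK2-VF (2 libraries) and 27.8 CPM in JAK2-VF Ezh2 -/- (3), and in batch 2 it was 2.82 CPM (4) and 9.02 CPM (3). The log2 change was 2.35 within batch 1 (edgeR adjusted p = 0.51) and 1.58 within batch 2 (adjusted p = 0.419). The call in JAK2-VF cells was lost without JAK2-VF batch 1 replicate 1 (1.93, adjusted p = 0.0539) or JAK2-VF Ezh2 -/- batch 2 replicate 2 (1.91, adjusted p = 0.0513). The pooled call was lost without control batch 1 replicate 1 (edgeR adjusted p = 0.0597), control batch 1 replicate 2 (0.0576) or Ezh2 -/- batch 2 replicate 1 (0.0941). Zmat3 overlaps the lncRNA gene 4930429B21Rik, which has a row of its own with group means of 0.0889 to 1.60 CPM and passed in no comparison. The use of strand in counting is not given in the sources used here, so reads of the 2 genes cannot be told apart. The same holds for Apaf1 with Ikbip and Ddb2 with Acp2. Trp53 and Mdm4 have pseudogene copies without a row in the counts, and how reads of such copies were assigned is not given in the sources used here.

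In the Ezh2 comparisons 1 of 35 genes rose for loss of both alleles in JAK2-VF cells (0.375% of all genes rose) and 1 in the pooled comparison (0.328%). With Ezh2 +/- or -/- against control and with JAK2-VF Ezh2 +/- against JAK2-VF, 0 of 35 genes were called by edgeR, as were 0.0% of all genes. Genes of the 35 with an unadjusted edgeR p under 0.05 numbered 1, 3 and 1 in these comparisons, beside 782, 907 and 576 of 14945 genes. The DESeq2 Wald test and limma-voom also called 0 of the 35, while the DESeq2 Wald test called 64, 97 and 44 of all genes and limma-voom 0. The comparisons share control or JAK2-VF libraries and are not independent. Ezh2 itself was lower in the pooled Ezh2 -/- comparison (-1.22 ± 0.16, edgeR adjusted p = 8.98e-05), and Jak2 was higher in the pooled JAK2-VF comparison (0.53 ± 0.09, adjusted p = 2.84e-05).

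Other genes of the p53 and DNA damage response were counted from further lists, to be read beside the 12.9% of all genes that rose and the 12.5% that fell. Of 25 other p53 targets, 5 rose and 5 fell with JAK2-VF in the pooled comparison (median -0.01), among them the antiproliferative gene Btg2 (1.38 ± 0.17, edgeR adjusted p = 2.32e-07) and Ninj1, a membrane rupture protein (-0.75 ± 0.10, adjusted p = 1.25e-06). Cdkn1a, the cell cycle inhibitor p21 and the standard readout of p53, was 43.4 to 243.0 CPM in the controls and 40.4 to 209.1 CPM in JAK2-VF, with a pooled change of -0.30 ± 0.26 (edgeR adjusted p = 0.447), and it passed in none of the comparisons. Of 18 p53 regulators, beside the same shares of all genes, 1 rose (Npm1, a nucleolar protein, 0.65 ± 0.06) and 4 fell, among them Bmi1, a Polycomb repressor of the Cdkn2a locus (-0.53 ± 0.13). Bmi1 also rose with the loss of both Ezh2 alleles in the pooled comparison (0.89 ± 0.17, edgeR adjusted p = 0.00774).

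In 4 lists of damage sensing and repair, genes were called higher or not at all with JAK2-VF in the pooled comparison, in which 12.9% of all genes rose. Of 20 damage sensors and checkpoint kinases 10 rose (median 0.29), among them Chek1, the replication checkpoint kinase (1.26 ± 0.20, edgeR adjusted p = 1.62e-05). Of 24 genes of homologous recombination and the Fanconi pathway 19 rose (median 0.74), among them Brca1, which acts in double-strand break repair (1.66 ± 0.27, edgeR adjusted p = 2.12e-05). End joining had 3 of 10 higher (median 0.19) and excision and mismatch repair 5 of 21 (median 0.09). Many recombination genes are made in S phase. The 20 proliferation genes given above also rose in this comparison. Neither the part of division in the rise of the recombination genes nor the difference between lists was tested.

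**Figure D4:**
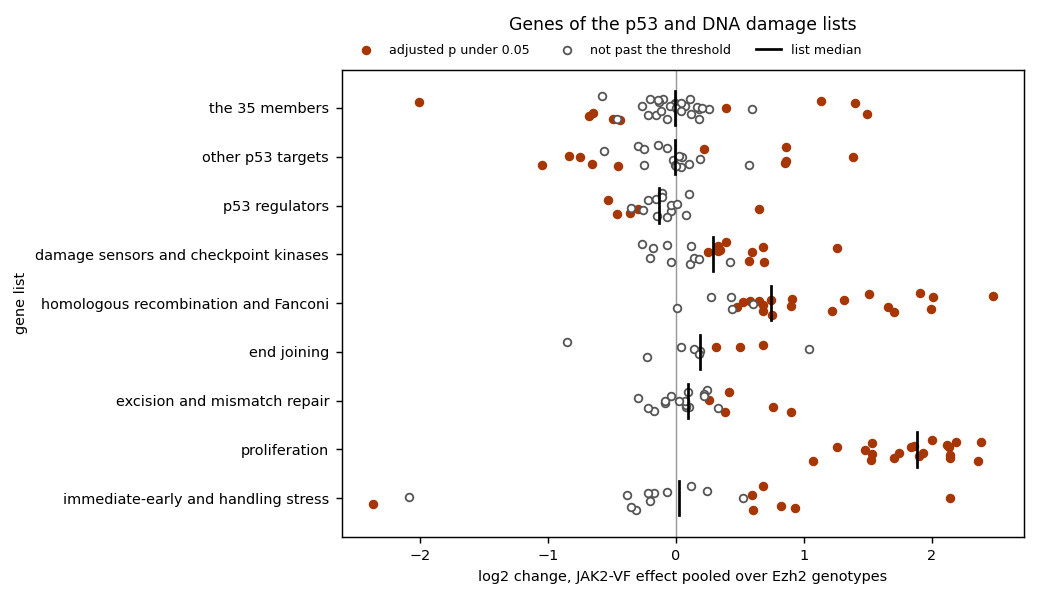
Log2 change for JAK2-VF pooled over Ezh2 genotypes (horizontal axis) of each gene of the 35 members and 8 further lists (rows), with filled points for an edgeR adjusted p under 0.05 and a bar at the list median. The 35 members and the other p53 targets centre on -0.01, and the proliferation genes lie to the right with a median of 1.88.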

How the data were processed

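Gene counts of 35 libraries were used as deposited, as whole-number counts per gene under Entrez identifiers; per the submitters' processing notes reads were aligned with STAR to mm9, while the counting tool, its use of strand and the annotation were not given in the sources used here. Per the labels' protocols, RNA came from 1000 sorted LT-HSCs per library and was made into libraries with a SMARTer low-input kit. The 1 entry for the Ezh2 exon part was left out of library sizes and tests and used only to check the labels. Of 19138 genes, 14945 passed edgeR's filterByExpr. Counts were fitted over all 35 libraries with edgeR 4.0.16 (R 4.3.3; quasi-likelihood test, TMM) on group, batch and sex; p-values were Benjamini-Hochberg adjusted over all genes in each comparison, with a threshold of 0.05, and SE is the log2 change over the root of F. CPM are TMM-normalised, and 1 was added before log2 for the mean level. DESeq2 1.42.0, limma 3.58.1 (voom) and the other alternatives are given in the closing section. Tables and figures used Python 3.11.15, pandas 2.3.3, numpy 2.4.6 and matplotlib 3.10.9, and the edgeR script was tested on simulated data. All 35 members are named; called members and Trp53, Mdm2, Bax, Bbc3, Pmaip1, Ccng1 and Phlda3 have values by library or group, and other lists give at most 4 called genes with the smallest adjusted p. The members and lists were chosen with earlier results of these data known. Promoter letters came from RefSeq (GRCm38.p6), a build other than that of the counts, so no coordinates are given beside counts. The values of 1 further gene of these lists are not reported here.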

Additional observations from a re-analysis of the deposited data

Results flagged for a closer look

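Each value here is a TMM-normalised CPM of the library farthest from its group, by the gap to the nearest library over the range of the group. Of 102 group values examined, 10 stood apart in this way. Chance alone sets apart about 1 in 20 only where values are normally distributed. The CPM were used without a log and their distribution was not checked, so the 10 are not read as an excess. Fas was 27.8 in Ezh2 +/- batch 1 replicate 2 (nearest 14) and 17.6 in JAK2-VF batch 1 replicate 1 (nearest 8.13). Plk2 was 20.8 in JAK2-VF Ezh2 -/- batch 1 replicate 1, the lowest (nearest 76.6). Psrc1 was 48.5 in JAK2-VF batch 2 replicate 4 (nearest 35.6). Sesn1 was 281.1 in Ezh2 +/- batch 1 replicate 3 (nearest 186.0), one of the libraries whose label is in doubt, and 268.9 in Ezh2 -/- batch 1 replicate 1 (nearest 177.8). Ak1 was 157.6 in Ezh2 +/- batch 2 replicate 2 (nearest 117.0), and Mdm2 was 154.1 in JAK2-VF Ezh2 +/- batch 1 replicate 1 (nearest 99.6). In JAK2-VF Ezh2 -/- batch 2 replicate 2, Bax was 130.4 (nearest 98.7) and Phlda3 was 8.39 (nearest 2.55).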

How the results depend on the processing

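Counts of the 35 genes called changed as follows, and the cause was not tested. JAK2-VF against control (2 genes) gave 4 by the DESeq2 Wald test, 4 without a term for sex, 1 with the compared groups only, 1 within batch 1, 0 within batch 2 and 1 to 3 on leaving out each library. In Ezh2 +/- cells (6) the counts were 1 within either batch, 2 in females and 4 to 7 on leaving out each library. In Ezh2 -/- cells (5) they were 3 with the replicate block, 2 with the compared groups only, 0 within batch 1, 0 in females and 3 to 5 on leaving out each library. The pooled JAK2-VF comparison (9) gave 4 within batch 1, 4 in females and 9 to 10 on leaving out each library; it has no fit with the compared groups only. Ezh2 -/- in JAK2-VF cells (1) gave 2 by the DESeq2 Wald test, 0 within either batch, 0 in females and 0 to 2 on leaving out each library. The pooled Ezh2 -/- comparison (1) gave 0 with the replicate block, within either batch and in females, and 0 to 1 on leaving out each library. The 5 comparisons with 0 calls stayed at 0 on leaving out each library. The difference of the mean level, taken as the median over the genes, was 0.18 for JAK2-VF against control (mean 0.08) and 0.13 in Ezh2 -/- cells (mean -0.07). The Fas change turned to 0.02 within batch 1. Of the single-gene values, 194 of 255 kept their call and direction under other settings, and 479 of 507 on leaving out a library. Of 69 pairs of libraries with the same batch and replicate number, 0 had a correlation over 0.1 (-0.177 to 0.077). Their median was -0.035, against -0.041 for pairs of a batch with other numbers. The correlations were taken after group, batch and sex were fitted. They show no pairing by replicate number but cannot exclude one, and no label settles it. For all genes the DESeq2 Wald test called 64, 97 and 44 where edgeR called 0 (Ezh2 +/- and -/- against control, and Ezh2 +/- in JAK2-VF cells).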
